A study of Arabidopsis thaliana with 13 samples.

Results

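LTI30 (locus AT3G50970) and COR47 (locus AT1G20440) are dehydrins of Arabidopsis thaliana, whose transcripts were followed here in seedlings given the cytokinin 6-benzyl adenine (BA). They are 2 genes, with 1 probe set each, among the 22746 probe sets of the array other than controls. Both were chosen by their measured signal in these arrays, namely the timing of a lower level between 15 and 120 min of BA and the level in a line that overproduces a cytokinin-degrading enzyme. The levels in Col-0 over time and the differences between the genotypes are therefore given as a description, with no test.

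The seedlings were grown in liquid medium and were either Col-0, the wild type, or a line carrying 35S::CKX1. In that line the constitutive cauliflower mosaic virus promoter drives CKX1, a cytokinin oxidase that breaks down cytokinins, throughout the plant. There were 13 arrays. CKX1 had 4 arrays from BA for 15 min and 3 from solvent, and Col-0 had 2 arrays each from solvent, from BA for 15 min and from BA for 120 min. Solvent lasted 2 h, so its duration equals that of the longer BA treatment alone. BA was dissolved in dilute KOH, and a growth time of 6 days is stated for the Col-0 seedlings given BA. The CKX1 line was not sampled at 120 min, and the labels give neither the BA dose nor the number of independent CKX1 lines. Array 1 of Col-0 at 120 min was placed by its title and description, since its source field names the control solution. The labels do not say that replicates were separate cultures, so each error and p-value reflects only how far these arrays spread, and that spread could be technical.

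Dehydrins are a class of late embryogenesis abundant (LEA) proteins. They are very hydrophilic, stay largely unfolded in water, and carry lysine-rich K-segments that fold on contact with membranes or other proteins, where they are thought to protect cell structures during water loss. LTI30, also called XERO2, is a dehydrin built mainly of repeated K-segments that binds membranes. COR47, also called RD17, is an acidic dehydrin with a serine stretch beside its K-segments. Transcripts of both accumulate in the cold, in drought and after abscisic acid (ABA), through the C-repeat binding factors (CBFs) and the ABA-responsive transcription factors. In the RefSeq gene table each lies beside another dehydrin gene, LTI30 beside XERO1 and COR47 beside ERD10, and neither neighbour had a probe set listed here.

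Array medians lay between 30.5 and 39.5 units, and the correlation across tested probe sets was 0.778 to 0.972 within groups and 0.806 to 0.971 between them. The 25S ribosomal RNA control set 5 arrays apart, with 92.5 to 803.7 units against at most 46.2 units on the other 8. These were both Col-0 120 min arrays, array 2 of Col-0 at 15 min, array 3 of CKX1 with solvent and array 3 of CKX1 at 15 min. On these 5 arrays 6.71% of tested probe sets lay below all 8 others and 4.69% lay above them. With 2 to 4 arrays a group, precision is limited throughout, and in whole seedlings fewer cells of a type and less RNA per cell cannot be told apart.

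LTI30 was low in Col-0 only at the later time. Its signal was 244.0 and 309.8 units with solvent, 317.1 and 325.9 units after 15 min of BA and 55.7 and 50.1 units after 120 min. The means were 276.9 ± 46.5, 321.5 ± 6.22 and 52.9 ± 3.96 units (SD, n = 2 each). The 15 min arrays stood above the solvent arrays, as for 11.6% of tested probe sets, and the 120 min arrays were the lowest of all 13 arrays. The mean at 120 min was 19.1% of the solvent mean and 16.5% of the 15 min mean.

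On the scale of log2(signal + 3.39), LTI30 at 120 min differed from solvent by −2.31 (SE 0.31) and from 15 min by −2.53 (SE 0.31). At 15 min it differed from solvent by 0.22 (SE 0.31). Of 15922 tested probe sets, 162 (1.02%) had a difference as low as that of LTI30 between 120 min and solvent. Between 120 and 15 min only 13 (0.0816%) did, LTI30 included. The medians of all tested probe sets were −0.11 and −0.07 in these comparisons.

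COR47 had the same timing with a smaller difference. Its signal was 988.3 and 1211.0 units with solvent, 1196.9 and 1042.2 units after 15 min and 647.5 and 561.4 units after 120 min. The means were 1099.7 ± 157.5 units with solvent, 1119.6 ± 109.4 units at 15 min and 604 ± 60.9 units at 120 min (SD, n = 2 each). The solvent and 15 min arrays overlapped, and both 120 min arrays lay below them. The mean at 120 min was 55.0% of the solvent mean and 54.0% of the 15 min mean.

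The log2 difference of COR47 was −0.86 (SE 0.34) between 120 min and solvent, −0.89 (SE 0.34) between 120 and 15 min, and 0.03 (SE 0.34) between 15 min and solvent. Unlike LTI30 it was not among the extreme probe sets, since 13.5% had a difference as low between 120 min and solvent and 6.58% between 120 and 15 min. Both 120 min arrays lay below both solvent arrays for the 2 dehydrins, as they did for 37.4% of all tested probe sets. They lay below both 15 min arrays for the 2 dehydrins and for 23.7% of probe sets. They were the 2 lowest of the 13 arrays for both dehydrins and for 5.54% of probe sets.

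**Figure D1:**
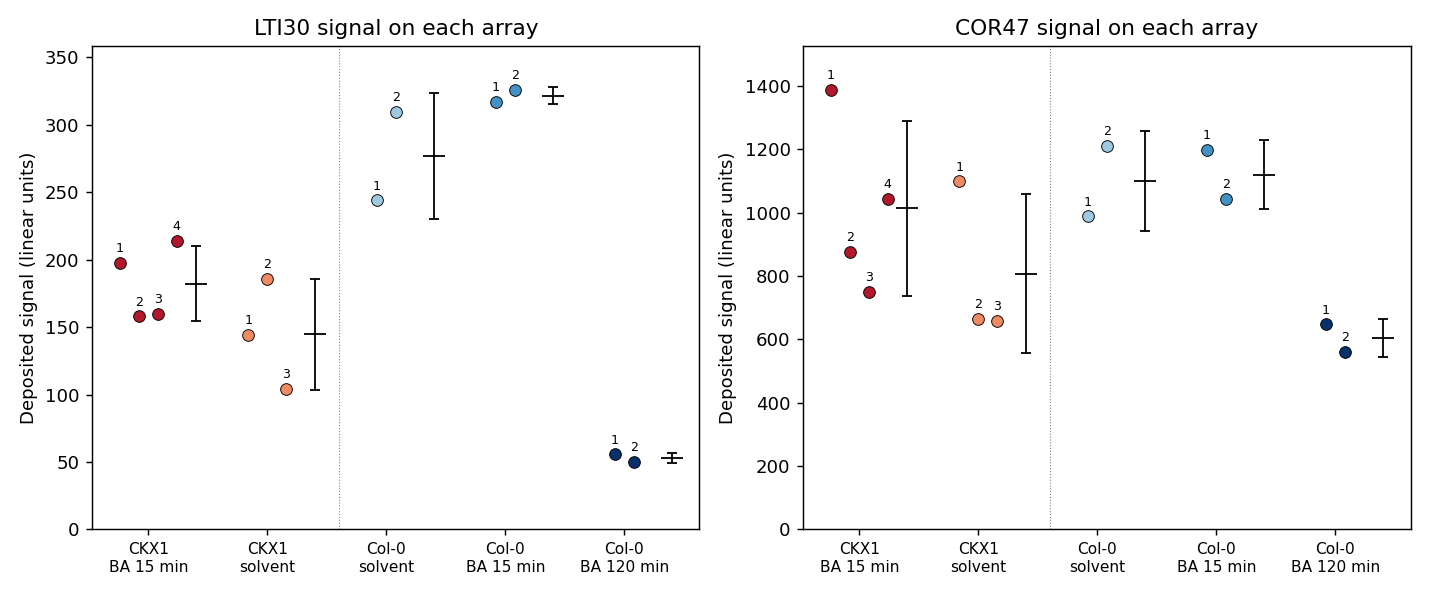
Deposited signal (linear units) of LTI30 and COR47 on each of the 13 arrays, by group, with the replicate number beside each point and the group mean ± SD to its right. The Col-0 120 min arrays are the lowest for both genes, at 50.1 and 55.7 units for LTI30 and 561.4 and 647.5 units for COR47, and the CKX1 arrays lie below the Col-0 solvent and 15 min arrays for LTI30 only.

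In Col-0 the 25S control had 695.9 and 548.2 units at 120 min, so there the signal cannot be told apart from the treatment time. It had 16.1 and 92.5 units at 15 min and 46.2 and 18.1 units with solvent. In CKX1 it had 16.8, 11.1, 803.7 and 21.0 units at 15 min and 14.5, 2.4 and 260.3 units with solvent. Array 2 of Col-0 at 15 min, with 92.5 units of 25S, had the highest LTI30 signal of all arrays, 325.9 units. The LTI30 mean at 120 min was 6.16-fold lower than this signal, but the 25S signal of that array was well under those at 120 min. The highest 25S signal, 803.7 units, was that of CKX1 15 min array 3, on which LTI30 had 159.6 units, inside the range of its group. Array 3 of CKX1 with solvent, at 260.3 units of 25S, had the lowest LTI30 signal of the 7 CKX1 arrays, 104.0 units.

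In each of the 3 groups that held 1 array high in 25S, that array had the lowest COR47 signal of its group, against 1 of 3 groups for LTI30. These signals were 748.7 units in CKX1 at 15 min, 659.3 units in CKX1 with solvent and 1042.2 units in Col-0 at 15 min. The COR47 mean at 120 min was 1.72-fold lower than the last of these signals. The share of tested probe sets that were lowest on these arrays in all 3 groups was not computed. The part of the 25S difference in the LTI30 and COR47 values was not tested.

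**Figure D2:**
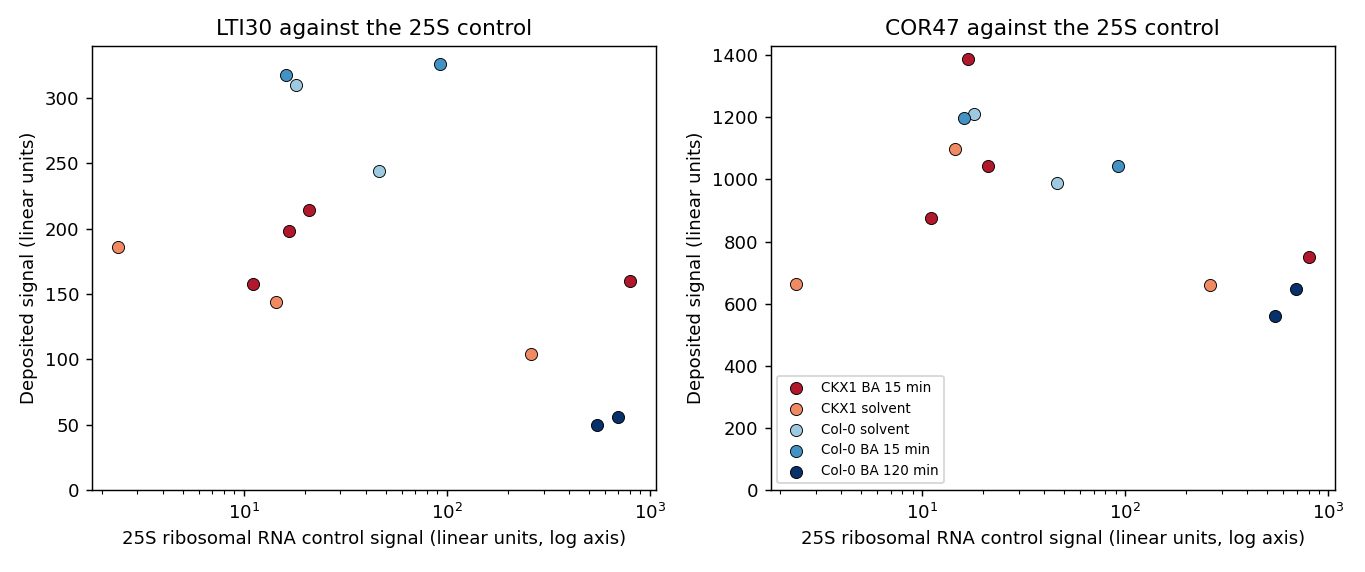
Signal of LTI30 and COR47 (linear units) against the 25S ribosomal RNA control (linear units, log axis) on the 13 arrays, coloured by group. LTI30 has its highest value, 325.9 units, on an array with 92.5 units of 25S, while the 3 lowest COR47 values, 561.4 to 659.3 units, lie on arrays with 260.3 to 695.9 units of 25S.

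In CKX1 seedlings LTI30 stood between the 2 levels seen in Col-0. After 15 min of BA the CKX1 arrays had 197.9, 157.9, 159.6 and 213.9 units, against 317.1 and 325.9 units in Col-0. With solvent they had 144.1, 185.7 and 104.0 units, against 244.0 and 309.8 units in Col-0. Each of the 7 CKX1 signals was under the lowest of these 4 Col-0 signals, as for 2.59% of tested probe sets, and over both Col-0 signals at 120 min. Within a treatment the same lack of overlap was found for 9.19% of probe sets after 15 min and 14.9% with solvent.

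The log2 difference of LTI30 between CKX1 and Col-0 was −0.82 (SE 0.26) after 15 min of BA and −0.95 (SE 0.28) with solvent. The CKX1 means were 56.7% and 52.2% of the Col-0 means. Without the 3 arrays outside the 120 min group that were high in 25S, the differences were −0.74 in both treatments. With all arrays kept, a difference as low as the −0.82 of LTI30 was found in 8.54% of tested probe sets after 15 min. A difference as low as its −0.95 with solvent was found in 5.23%. The medians over all tested probe sets were −0.07 and −0.11.

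COR47 signals of the 2 genotypes overlapped. After 15 min of BA its signal in CKX1 was 1387.7, 876.6, 748.7 and 1043.8 units, against 1196.9 and 1042.2 units in Col-0. With solvent it was 1098.6, 664.9 and 659.3 units in CKX1, against 988.3 and 1211.0 units in Col-0. CKX1 arrays lay above, within and below the range of Col-0, and the highest of all 13 values was that of CKX1 15 min array 1. The log2 difference was −0.18 (SE 0.29) after 15 min and −0.48 (SE 0.31) with solvent, and 41.5% and 21.3% of tested probe sets had one as low. Leaving out 1 array moved the first of these to −0.34 (without CKX1 array 1) and −0.04 (without CKX1 array 3), to −0.12 without CKX1 array 2, and to −0.08 and −0.28 without Col-0 array 1 and array 2.

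**Figure D3:**
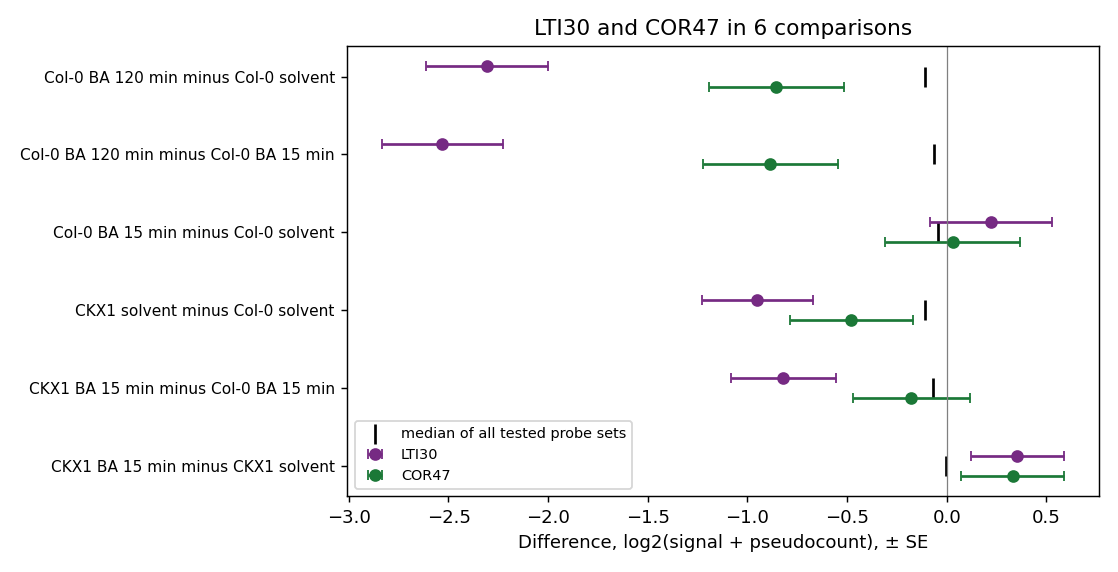
Differences of LTI30 and COR47 on the log2(signal + pseudocount) scale with their SE in 6 comparisons, and the median of all tested probe sets as a tick. Both genes are below 0 in the 2 comparisons with Col-0 at 120 min, LTI30 at −2.31 and −2.53 and COR47 at −0.86 and −0.89, and between the genotypes LTI30 is at −0.82 and −0.95 and COR47 at −0.18 and −0.48.

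The response of CKX1 seedlings to 15 min of BA was tested. That contrast was not named in the choice of the 2 genes, but the choice used the CKX1 levels that enter it. Its p-values are thus not independent of the choice. LTI30 averaged 182 ± 28.0 units after BA (SD, n = 4) and 145 ± 40.9 units with solvent (SD, n = 3), a log2 difference of 0.35 (SE 0.23, 95% interval −0.16 to 0.86). COR47 averaged 1014 ± 277 units after BA (n = 4) and 808 ± 252 units with solvent (n = 3), a log2 difference of 0.33 (SE 0.26, 95% interval −0.23 to 0.90). The treated and solvent arrays overlapped for both genes. Leaving out 1 array moved the LTI30 difference to 0.14 (without solvent array 3) and 0.55 (without solvent array 2). It moved that of COR47 to 0.17 without BA array 1, 0.57 without solvent array 1, and 0.21 without solvent array 2 or 3. Neither passed the threshold of an adjusted p of 0.05 (limma, unadjusted p = 0.156 for LTI30 and 0.224 for COR47, adjusted p = 1.00 for both), as against 0.00628% of tested probe sets that did. No CKX1 array was taken at 120 min, the time at which the 2 genes were lower in Col-0.

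Part of the COR47 spread in CKX1 ran with the replicate number of the titles. Number 1 had 1387.7 units after BA and 1098.6 units with solvent, number 2 had 876.6 and 664.9 units, and number 3 had 748.7 and 659.3 units. COR47 was thus higher after BA in 3 of 3 pairs, with a mean log2 ratio of 0.31 ± 0.11 (SD, n = 3 pairs). For LTI30 the pairs were 197.9 and 144.1 units, 157.9 and 185.7 units, and 159.6 and 104.0 units. LTI30 was higher after BA in 2 of 3 pairs, with a mean log2 ratio of 0.27 ± 0.44. The share of tested probe sets that were higher after BA in all 3 pairs was not computed, so these counts have no background.

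**Figure D4:**
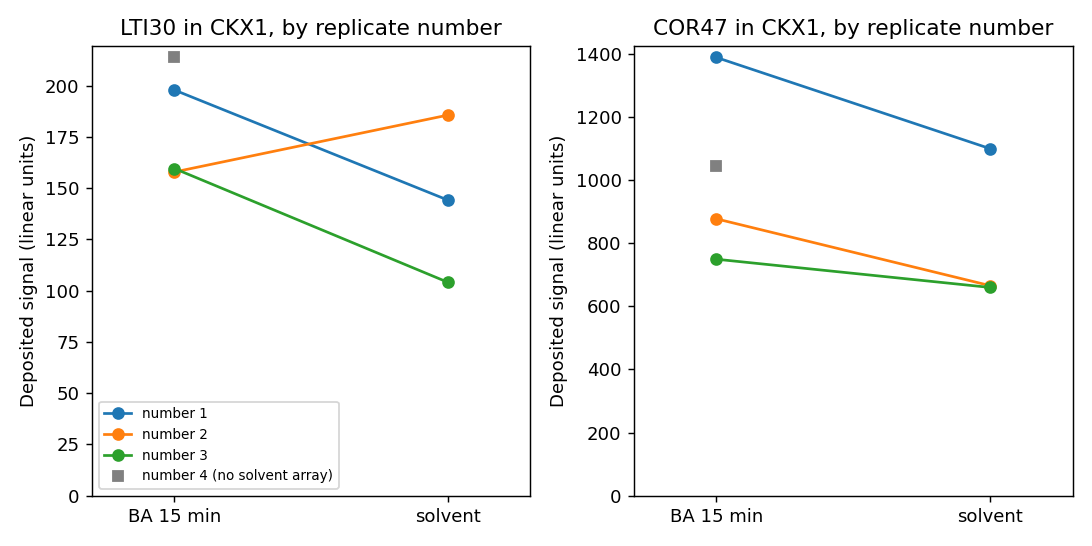
Signal of LTI30 and COR47 (linear units) in CKX1 after 15 min of BA and with solvent, with a line joining arrays of the same replicate number and a square for number 4, which has no solvent array. The COR47 lines keep the order 1, 2, 3 at both ends and all slope the same way, while the LTI30 lines cross.

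Ordered by group mean, LTI30 ran from Col-0 at 15 min (321.5 units) through Col-0 with solvent (276.9), CKX1 at 15 min (182) and CKX1 with solvent (145) to Col-0 at 120 min (52.9). The first 2 of these groups differed by 44.6 units, less than the SD of the solvent group, and the 2 CKX1 groups overlapped. The steps from Col-0 to CKX1 and from CKX1 to Col-0 at 120 min had no overlap. All 7 CKX1 arrays lay below the 4 other Col-0 arrays for 2.59% of tested probe sets. Both 120 min arrays lay below all 11 others for 5.54%, and a share for CKX1 against Col-0 at 120 min alone was not computed. COR47 had the same order of group means, but every neighbouring pair overlapped except CKX1 with solvent and Col-0 at 120 min. There the means differed by 203 units, less than the SD of 252 units in CKX1, and the nearest arrays had 659.3 and 647.5 units.

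The other measured dehydrins differed among themselves. Of 8 further dehydrin loci, 4 had a probe set with 1 gene and 3 passed the filter on low signals, AT4G39130 being below it at 1.0 to 17.8 units. HIRD11, a small histidine-rich dehydrin that binds metal ions, had 981.0 and 872.7 units with solvent, 1173.2 and 512.1 units at 15 min and 670.0 and 675.4 units at 120 min in Col-0. AT2G21490, listed by RefSeq as dehydrin LEA, had 69.2 and 53.2 units, then 97.1 and 1.1 units, then 17.4 and 11.5 units. AT4G38410 had 27.4 and 30.7 units, then 39.9 and 35.2 units, then 30.2 and 20.9 units.

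HIRD11 and AT2G21490 were spread at 15 min over a range that held the 120 min values, with the lower value on array 2 in both, and AT4G38410 was lower at 120 than at 15 min without overlap but overlapped its solvent arrays at 120 min. Of the 3, 0 passed between 120 min and solvent (limma, 0 also at an unadjusted p under 0.05), where 0.0377% of all tested probe sets passed and 12.7% had such an unadjusted p. The log2 differences were −1.87 (SE 1.27) for AT2G21490, −0.46 (SE 0.58) for HIRD11 and −0.18 (SE 0.44) for AT4G38410, a median of −0.46 against −0.11 over all probe sets. Centring arrays on their median or quantile normalization turned the sign of AT4G38410. Between 120 and 15 min the median of the 3 was −0.27 against −0.07, and 0 passed (limma, 0 at an unadjusted p under 0.05). Of all probe sets 0.0188% passed there and 5.34% had such an unadjusted p.

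In CKX1 the other dehydrins went different ways. HIRD11 had 1094.0, 312.9, 874.0 and 809.4 units after 15 min of BA in CKX1, which overlapped Col-0. With solvent it had 813.0, 336.7 and 477.3 units in CKX1, against 981.0 and 872.7 units in Col-0, a log2 difference of −0.86 (SE 0.53) without overlap, as for 14.9% of tested probe sets. AT4G38410 was higher in CKX1 than in Col-0 without overlap in both treatments. The difference was 0.65 (SE 0.38) after 15 min, as for 6.48% of tested probe sets, and 0.36 (SE 0.40) with solvent, as for 9.41%. The first includes CKX1 15 min array 3, with 126.5 units against 43.8 to 51.1 units on the other CKX1 arrays at 15 min. AT2G21490 overlapped between the genotypes in both treatments. Of the 3, 0 passed in either comparison of the genotypes (limma, 0 at an unadjusted p under 0.05).

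Cold- and ABA-linked genes could be matched to probe sets only in part. Of 27 cold-regulated loci, 5 had a probe set and 3 passed the filter. STZ, a zinc-finger repressor induced by cold and salt, had 213.7 and 314.2 units with solvent, 185.1 and 53.4 units at 15 min and 40.1 and 51.8 units at 120 min in Col-0. COR15B, which encodes a chloroplast protein protecting membranes in freezing, had 11.1 to 35.9 units in Col-0. COR27, a cold-induced gene also under the circadian clock, had 1.3 to 18.2 units there.

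The filter removed COR15A, at 8.7 units or less on every array, and AT4G33980. Among the 29 ABA and dehydration response loci 2 were matched to a probe set in the annotation, LEA4-5, a LEA protein gene, and the locus AT3G02480. None of the 27 loci of core ABA signalling had a probe set with 1 gene, and no CBF gene had one, so the known regulators of the 2 dehydrins were not assessed.

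Of the 8 tested genes of the dehydrin, cold and ABA lists other than LTI30 and COR47, 0 passed in any of the 6 comparisons (limma, 0 at an unadjusted p under 0.05). Between 15 min and solvent in Col-0 0% of all tested probe sets passed and 1.09% had an unadjusted p under 0.05. These shares were 0.0188% and 9.57% between CKX1 and Col-0 after 15 min, 0.0126% and 4.31% with solvent, and 0.00628% and 1.37% in CKX1 between BA and solvent. The lowest adjusted p was 0.409, that of AT3G02480 between 120 min and solvent. In that comparison 7 of the 8 had a negative difference, with a median of −1.05 against −0.11 over all tested probe sets, of which 57.1% were negative. Of these 7 signs, that of AT4G38410 turned after centring, after quantile normalization and without Col-0 120 min array 2, and that of COR15B turned without that array. AT3G02480 had −3.44 (SE 1.62), STZ −2.42 (SE 1.36), LEA4-5 −1.57 (SE 1.56), COR15B −0.54 (SE 0.49) and COR27 0.18 (SE 1.45).

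**Figure D5:**
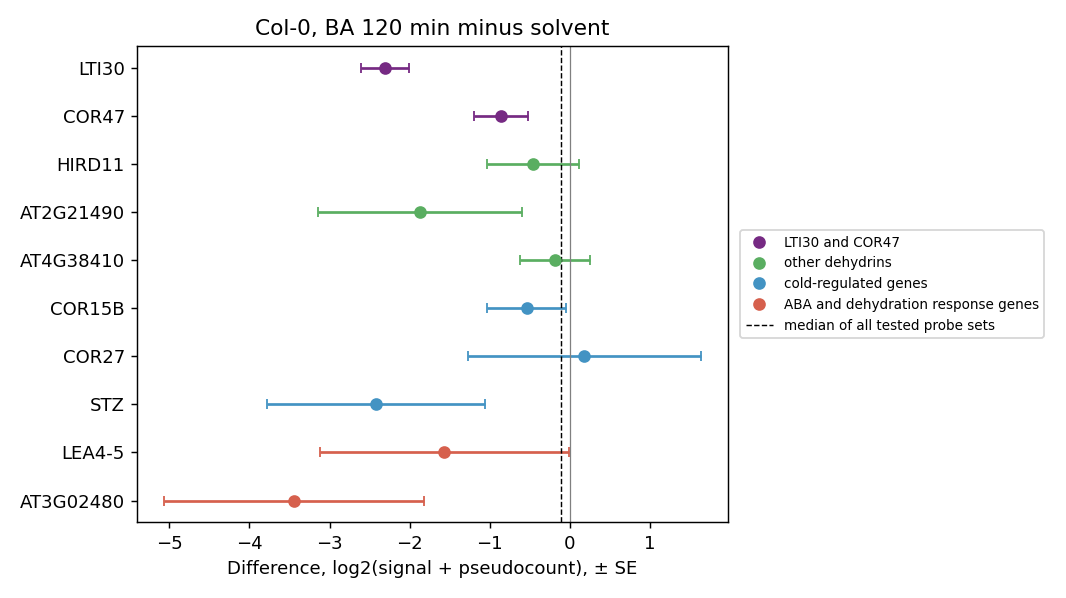
Differences between 120 min of BA and solvent in Col-0, on the log2(signal + pseudocount) scale with SE, for LTI30, COR47 and the 8 tested genes of the dehydrin, cold and ABA lists, with the median of all tested probe sets dashed. LTI30 at −2.31 has an SE of 0.31, whereas STZ, LEA4-5 and AT3G02480, with differences of −1.57 to −3.44, have an SE of 1.36 to 1.62.

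Among the genes with wide errors, AT3G02480, LEA4-5 and AT2G21490 were divided by the 25S control, while STZ and COR27 were not. AT3G02480 had 1.0 to 25.2 units on the 5 arrays high in 25S, against 63.0 to 307.0 units on the other 8. LEA4-5 had 2.2 to 43.7 units on the 5 arrays, against 44.9 to 258.9 units on the 8. AT2G21490 had 1.1 to 20.6 units on the 5 arrays, against 43.5 to 167.1 units on the 8. For each of the 3 genes the 2 sets of arrays did not overlap, as for 6.71% of tested probe sets, a division drawn after the 25S values were seen.

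LTI30 and COR47 were not divided in that way, since the 2 sets of arrays overlapped, but their medians were lower on the 5 arrays. LTI30 had 50.1 to 325.9 units on the 5 arrays, against 144.1 to 317.1 units on the 8, and COR47 had 561.4 to 1042.2 units on the 5, against 664.9 to 1387.7 units on the 8. The medians were 104 units on the 5 arrays against 205.9 units on the 8 for LTI30, and 659.3 against 1071.2 units for COR47. The 5 arrays include both Col-0 arrays of the later time, when both genes were lowest. For LTI30 the 5 arrays held both the lowest and the highest signal of the series. The highest values on the 5 arrays, 325.9 units for LTI30 and 1042.2 units for COR47, came from the array with 92.5 units of 25S, the least of the 5.

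Type-A response regulators, early targets of cytokinin that dampen its signal, were measured as another readout of the BA treatment. ARR15 had 11.3 and 2.7 units with solvent, 119.8 and 57.8 units at 15 min and 80.4 and 61.7 units at 120 min in Col-0. ARR16 had 19.6 and 16.2 units, then 68.3 and 31.1 units, then 67.0 and 84.1 units. For both genes every Col-0 BA array lay above both Col-0 solvent arrays, at 15 min (11.6% of tested probe sets) as at 120 min (26.3%). The 2 dehydrins lay below the solvent arrays at 120 min alone. Of the 2 regulators measured of 10 listed, 0 passed at 15 min (limma, 1 at an unadjusted p under 0.05), against 0% and 1.09% of all probe sets. At 120 min 0 passed (limma, 2 at an unadjusted p under 0.05), against 0.0377% and 12.7%. In CKX1 ARR15 had 12.6 to 36.6 units after 15 min of BA and 3.2 to 11.4 units with solvent. ARR16 had 4.8 to 37.2 units and 4.4 to 11.4 units there, so its treated and solvent arrays overlapped.

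Markers of seedling organs were present. LHCB4.1, a chlorophyll-binding protein of leaves, had 3940.7 to 8940.2 units, and the root-enriched glucosidase PYK10 had 2228.6 to 3862.6 units over the 13 arrays. The root hair expansins EXPA7 and EXPA18 had log2 differences of −1.95 (SE 0.55) and −1.54 (SE 0.56) between 120 min and solvent, and the root-list locus AT1G62500 had 1.40 (SE 0.56). Of the 4 root markers measured of 6, 0 passed (limma, 3 at an unadjusted p under 0.05), against 0.0377% and 12.7% of all probe sets. LHCB4.1, the 1 measured of 6 shoot markers, had 0.70 (SE 0.28) and PYK10 0.16 (SE 0.22), and quantile normalization turned both, to −0.15 and −0.45. The part of a shift in organ makeup in the LTI30 and COR47 values was not tested.

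The genes most like LTI30 across the 13 arrays were sought among the 8747 other tested probe sets with 1 gene, by Pearson's r of log2 values. They were AT3G46490 (r = 0.94), AT5G12010 (0.93), SAE1A (0.90), a subunit of the enzyme that activates the small modifier SUMO, AT5G48640 (0.89) and AT1G51805 (0.88). AT1G51805 had 80.1 and 95.7 units with solvent, 132.7 and 74.0 units at 15 min and 27.9 and 14.1 units at 120 min in Col-0, and 22.3 to 42.7 units in CKX1. AT5G12010 had 144.1 and 128.2 units, then 133.7 and 121.9 units, then 64.9 and 64.6 units in Col-0, and 88.0 to 119.2 units in CKX1. AT5G12010, like LTI30, had its 2 lowest signals in Col-0 at 120 min, and AT1G51805 had 1 CKX1 array below the higher of them.

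For COR47 the most alike were AT1G14020 (r = 0.89), AT1G02410 (0.88), AT1G19715 (0.88), AT5G62360 (0.87) and AT2G43880 (0.87), none of which was among those most like LTI30. LTI30 and COR47 correlated with each other at r = 0.78 (Spearman's rho = 0.70, n = 13 arrays). By r, COR47 was number 61 of 15921 probe sets in likeness to LTI30, and LTI30 was number 109 in likeness to COR47. These correlations describe 13 arrays that share scaling, treatment groups and the 25S division, and their order changed with the measure. By Spearman's rho, AT1G51805 stood first for LTI30 (rho = 0.96). AT3G46490 was number 20 by rho, and number 11 by r (0.83) after each array was centred on its median.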

How the data were processed

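Linear signal intensities were used as deposited by the authors, already normalized, with 1 value for each probe set on an array. Per the labels, a service centre made them from biotin-labelled cRNA on Affymetrix arrays. Neither software nor scaling target is stated in the sources used here. The 2% trimmed means of linear signal over all probe sets spanned 6.4e-05 on the log2 scale over the arrays. The members, gene lists and tests were chosen with earlier results of these data known.

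Of 22810 probe sets, 64 controls were left out. Values under 1 were set to 1, 3.39 was added as pseudocount (0.1 times the median signal of the table), and probe sets whose mean log2 value was under the 30th percentile were removed, leaving 15922. Differences on this scale understate the change of dim probe sets. A limma 3.58.1 model (R 4.3.3) covered the 13 arrays and 5 groups, with an intensity trend, 8 residual degrees of freedom and Benjamini-Hochberg adjustment over all tested probe sets, the threshold being 0.05. The fit was tested on simulated data. Of 22746 probe sets, 13513 matched 1 gene in the platform annotation and 503 several, and those with several genes were left unnamed.

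In 7 gene lists, 20 of 115 loci could be matched to a probe set, and 17 passed the filter. Measured loci are those matched in this way, and a locus without a match may still be on the array. The rule for named genes takes both dehydrins, every measured dehydrin, up to 8 measured genes of each other list and the 5 genes most like each dehydrin by Pearson's r. Replicate numbers paired the CKX1 arrays: deviations from group means correlated at 0.63, 0.58 and 0.73 in the 3 same-numbered pairs across probe sets. Alternatives were median-centring, quantile normalization, pseudocounts of 1 and 16, no filter or one at the 50th percentile, no trend, array weights, a replicate block, the compared groups alone and leaving arrays out. Sequences were not used here.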

Additional observations from a re-analysis of the deposited data

Results flagged for a closer look

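Among 30 genes examined in the 4 CKX1 arrays at 15 min, 5 had 1 array far from the other 3 in linear signal. The share of all tested probe sets with such an array was not computed, so this count has no background. LTI30 and COR47 had none. Array 3, which has the highest 25S control signal, held 3 of them. On it the dehydrin-list locus AT4G38410 had 126.5 units against 43.8 to 51.1 units on the other 3 arrays, STZ had 518.4 units against 23.5 to 52.5 units, and LHCB4.1 had 6381.2 units against 4750.7 to 5025.2 units. COR15A had 8.7 units on array 2, against 1.1 to 1.3 units on the others. AT1G02410, one of the genes most like COR47, had 95.9 units on array 1, the array with the highest COR47 signal, against 72.7 to 74.3 units on the others.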

How the results depend on the processing

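For LTI30 and COR47, each of the 173 values recomputed per gene over 7 comparisons stayed within 1 SD of replicates (0.26 and 0.33 on the log2 scale), and the CKX1 response passed under none of them (limma adjusted p 0.965 to 1.00). Small differences still moved by over 1.5 times on leaving out 1 array: the CKX1 response was 0.14 to 0.55 for LTI30 and 0.17 to 0.57 for COR47, and COR47 between CKX1 and Col-0 was −0.34 to −0.04 after BA and −0.72 (without CKX1 array 1) to −0.33 with solvent. Between 15 min and solvent in Col-0, LTI30 was 0.053 to 0.39 and COR47 −0.12 to 0.18, in each case without solvent array 1 and without solvent array 2. Between 120 min and solvent LTI30 had −2.48 to −2.08 and COR47 −1.05 to −0.66, and without the 120 min array whose source field names the control solution −2.38 and −0.96. Between CKX1 and Col-0 with solvent LTI30 had −1.15 to −0.74. A fixed replicate block in CKX1 gave 0.27 for LTI30 and 0.31 for COR47 and changed no call of theirs. It could not be fitted between genotypes. Col-0 arrays of the same number did not deviate together (r = 0.11, −0.02 and 0.02), so the block there is given as counts only.

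Counts over all probe sets were less stable. Between 120 min and solvent 6 passed, and 3472 with array weights, 3672 with the compared groups alone, 1027 with a fixed and 831 with a random replicate block, 3 without a filter, 1604 without Col-0 15 min array 2 and both CKX1 arrays numbered 3, and 0 to 74 leaving out 1 array. Dropping either Col-0 15 min array gave 71 (array 1) or 74 (array 2), dropping array 3 of CKX1 gave 23 (BA) or 12 (solvent), and dropping any other array gave 0. Of the 8 stress-list genes, 0 passed, but 4 with the compared groups alone, 2 with weights, 1 with the fixed block and 1 without those 3 arrays. Between 120 and 15 min 3 passed, and 22 with weights, 0 with the compared groups alone, 52 and 51 with the fixed and random replicate block, 752 without the 3 arrays (1 stress-list gene) and 0 to 5 leaving out 1 array. Between 15 min and solvent in Col-0 0 passed, with weights 1, and 0 to 3 leaving out 1 array. Between CKX1 and Col-0 with solvent 2 passed, with weights 9, with the compared groups alone 1, with the 50th percentile filter 1, without the 3 arrays 16, and 1 to 4 leaving out 1 array. After BA 3 passed, and 1 with the compared groups alone or that filter, 5 after quantile normalization, 14 without the 3 arrays and 2 to 30 leaving out 1 array (30 without Col-0 15 min array 1). In CKX1 1 passed, and 2 with weights, 3 with a random replicate block, 0 without the 3 arrays and 1 to 2 leaving out 1 array. The cause was not tested.

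Signs turned between 120 min and solvent for AT4G38410 (0.018 with centred arrays, 0.030 after quantile normalization), LHCB4.1 (−0.15) and PYK10 (−0.45) after quantile normalization, and on leaving out 1 Col-0 array for AT4G38410 (−0.42 to 0.052), COR15B (−1.19 to 0.11) and COR27 (−0.21 to 0.57).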
